A study of Mus musculus with 12 samples.

Results

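The 6 Iroquois genes, Irx1 to Irx6, and Fto, the gene that lies beside one of their clusters, were examined for MOF binding in visceral white adipose tissue (WAT). These 7 genes, of 21938 protein-coding genes on chromosomes 1 to 19, X and Y, were located by the GENCODE M21 annotation, and every MOF peak in the gene body or within 3 kb of any annotated start site was collected, together with the peaks in the intervals between the genes of each cluster and in the introns of Fto. The genes were chosen by name with earlier results of these peak lists known, among them the presence and fold enrichment of peaks at some of the 7, so the presence, number and height of their peaks are a description and carry no test. Of the peaks of the whole series, 6 of 19773 for Mof+/+ and 6 of 731 for Mof+/- belonged to these genes. The intervals added 1 Mof+/+ peak and 0 Mof+/- peaks.

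MOF was mapped by ChIP-seq, the sequencing of DNA pulled down with an antibody to a chromatin protein, in C57BL/6 mice aged 8 weeks on a standard diet. Mof+/+ mice carry both copies of the Mof gene (Kat8), and Mof+/- mice carry a single functional copy in every tissue, so that an effect seen in WAT need not arise in adipocytes. The labels give 12 libraries in 6 groups of 2, namely ChIP of MOF, ChIP of histone H3 and input, each in both genotypes, and the study's text counts 2 control animals but 3 Mof+/- animals in one place and 2 animals of each genotype in another. For MOF, 1 peak list per genotype was analysed, so no value below has a replicate, and the spread between animals is unknown for every difference between the genotypes.

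MOF, also named KAT8, is the acetyltransferase that places most of the acetyl marks on lysine 16 of histone H4, a modification that loosens the packing of nucleosomes. Iroquois proteins are homeodomain transcription factors of the TALE class that pattern the nervous system, heart and limbs of the embryo. In mammals their genes form a pair of clusters, Irx1, Irx2 and Irx4 in one and Irx3, Irx5 and Irx6 in the other, with long intervals in which enhancers lie. Fto, the neighbour of the second cluster, encodes an enzyme that removes m6A, a methyl mark on RNA. Its first intron is known for the human variants most strongly tied to body weight, and enhancers within Fto contact Irx3 and Irx5, which act in adipocyte precursors on the choice between storage and heat-producing (beige) fat.

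The sequences below lie under 4 of the summits that the results turn on, in the stretch between Fto and its divergent neighbour, or just before the starts of genes without a peak. They are the 300 bases around a summit unless a length is given, read 5′ to 3′ from the plus strand of GRCm38, with each CpG in capitals. The first is from the intron of Irx1 where both lists had a peak (chr13:71961784-71962083).
Irx1 summit, Mof+/+: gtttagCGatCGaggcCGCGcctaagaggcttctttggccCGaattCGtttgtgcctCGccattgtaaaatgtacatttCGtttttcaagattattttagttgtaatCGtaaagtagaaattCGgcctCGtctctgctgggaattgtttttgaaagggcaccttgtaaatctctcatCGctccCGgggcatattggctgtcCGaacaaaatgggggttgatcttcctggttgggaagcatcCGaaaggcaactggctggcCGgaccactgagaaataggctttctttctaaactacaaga
Upstream of Irx3 the stronger of the 2 peaks had its summit in an exon of the noncoding gene Irx3os (chr8:91805578-91805877).
Irx3 upstream summit, Mof+/+: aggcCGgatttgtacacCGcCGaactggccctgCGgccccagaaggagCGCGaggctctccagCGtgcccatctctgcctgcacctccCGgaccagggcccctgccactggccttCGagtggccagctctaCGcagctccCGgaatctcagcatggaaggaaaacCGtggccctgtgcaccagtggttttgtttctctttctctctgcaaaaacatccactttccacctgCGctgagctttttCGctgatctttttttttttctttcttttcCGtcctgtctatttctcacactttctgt
At Irx5 the strongest Mof+/+ summit of all members (chr8:92358645-92358944) and the Mof+/- summit with the highest fold enrichment (chr8:92364857-92365156) are shown.
Irx5 intron summit, Mof+/+: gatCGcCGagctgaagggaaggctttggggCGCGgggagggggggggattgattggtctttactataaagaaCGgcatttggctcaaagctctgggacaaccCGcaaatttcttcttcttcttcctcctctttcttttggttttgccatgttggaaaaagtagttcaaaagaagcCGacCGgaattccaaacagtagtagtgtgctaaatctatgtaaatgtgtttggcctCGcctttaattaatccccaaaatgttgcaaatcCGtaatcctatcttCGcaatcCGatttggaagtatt
Irx5 distal summit, Mof+/-: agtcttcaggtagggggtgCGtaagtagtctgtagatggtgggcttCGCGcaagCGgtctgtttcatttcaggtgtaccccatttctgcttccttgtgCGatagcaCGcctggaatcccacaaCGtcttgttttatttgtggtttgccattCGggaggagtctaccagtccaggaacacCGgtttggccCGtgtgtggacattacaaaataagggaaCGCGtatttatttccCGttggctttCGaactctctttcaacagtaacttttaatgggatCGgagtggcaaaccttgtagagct
At Fto the 262 bases between its start and that of the divergent gene Rpgrip1l are given (chr8:91313263-91313524), since the peak beside them cannot be given to one of the genes; they end before that peak begins.
Between Rpgrip1l and Fto: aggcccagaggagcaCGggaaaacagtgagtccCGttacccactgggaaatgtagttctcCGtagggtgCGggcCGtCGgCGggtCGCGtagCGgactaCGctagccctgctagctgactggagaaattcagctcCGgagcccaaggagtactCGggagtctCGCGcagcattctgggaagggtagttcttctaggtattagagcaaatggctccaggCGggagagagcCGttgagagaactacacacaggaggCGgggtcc
Finally come the 200 bases before the starts of Irx2 (chr13:72628620-72628819), Irx4 (chr13:73260279-73260478) and Irx6 (chr8:92674088-92674287), none of which had a peak.
Before Irx2: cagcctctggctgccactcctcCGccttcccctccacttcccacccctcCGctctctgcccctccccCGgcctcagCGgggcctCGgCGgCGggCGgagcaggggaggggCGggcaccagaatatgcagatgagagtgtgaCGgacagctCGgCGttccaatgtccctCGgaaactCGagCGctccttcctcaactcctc
Before Irx4: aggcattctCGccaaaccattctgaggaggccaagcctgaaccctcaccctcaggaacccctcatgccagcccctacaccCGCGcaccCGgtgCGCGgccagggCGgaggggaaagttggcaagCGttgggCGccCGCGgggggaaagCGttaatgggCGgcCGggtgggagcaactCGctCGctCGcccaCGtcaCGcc
Before Irx6: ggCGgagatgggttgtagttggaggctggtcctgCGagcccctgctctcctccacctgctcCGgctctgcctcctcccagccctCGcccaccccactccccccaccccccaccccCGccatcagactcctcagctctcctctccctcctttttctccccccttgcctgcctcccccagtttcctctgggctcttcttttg

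Of the 7 genes, 4 had a Mof+/+ peak in the gene body or within 3 kb of a start site, namely Irx1, Irx3, Irx5 and Fto. Only Irx1 and Irx5 had one in the Mof+/- list. That was 57.1% and 28.6% of the members, where 44.5% of all protein-coding genes (9773 genes) had a Mof+/+ peak by this rule and 1.89% (415 genes) a Mof+/- peak. The same 4 and 2 genes had a peak within 1 kb of a start site, called a promoter peak here, against 41% and 1.32% of all genes. With the summit in place of any overlap, 2 members (Irx3 and Fto) had a Mof+/+ promoter peak and 0 a Mof+/- one. Irx2, Irx4 and Irx6 were without a peak in either list. Since the genes were picked with these peaks in view, nothing is read from the gap to the background. The 3 kb limit fell between the farther Irx3 peak, whose edge was 2870 bp from a start site, and the peak upstream of Irx2, whose edge was 3352 bp away.

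The peak caller reports, for the highest point of each peak (the summit), the fold enrichment of fragments over the local input background, a ratio in which 1 is added to both numbers, so it is lower than fragments divided by background. Across the members it ranged from 2.38 to 6.86 in the 6 Mof+/+ peaks, with a median of 4.47, and from 3.99 to 5.83 in the 6 Mof+/- peaks, with a median of 5.19. Across whole lists the medians were 3.40 (interquartile range 2.90 to 4.17) and 4.29 (3.71 to 4.91). The lists are not on one scale. A fold enrichment of 2.65 was enough to enter the Mof+/+ list at its lowest input background of 3.52 fragments, whereas 3.68 was needed in the Mof+/- list at its lowest background of 2.26 fragments, and the weakest −log10 p was 3.25 and 4.72. A site thus had to meet a stricter p-value to be listed for Mof+/-. The lists give no library totals, and the part of depth in the differences between the lists was not tested.

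**Figure D1:**
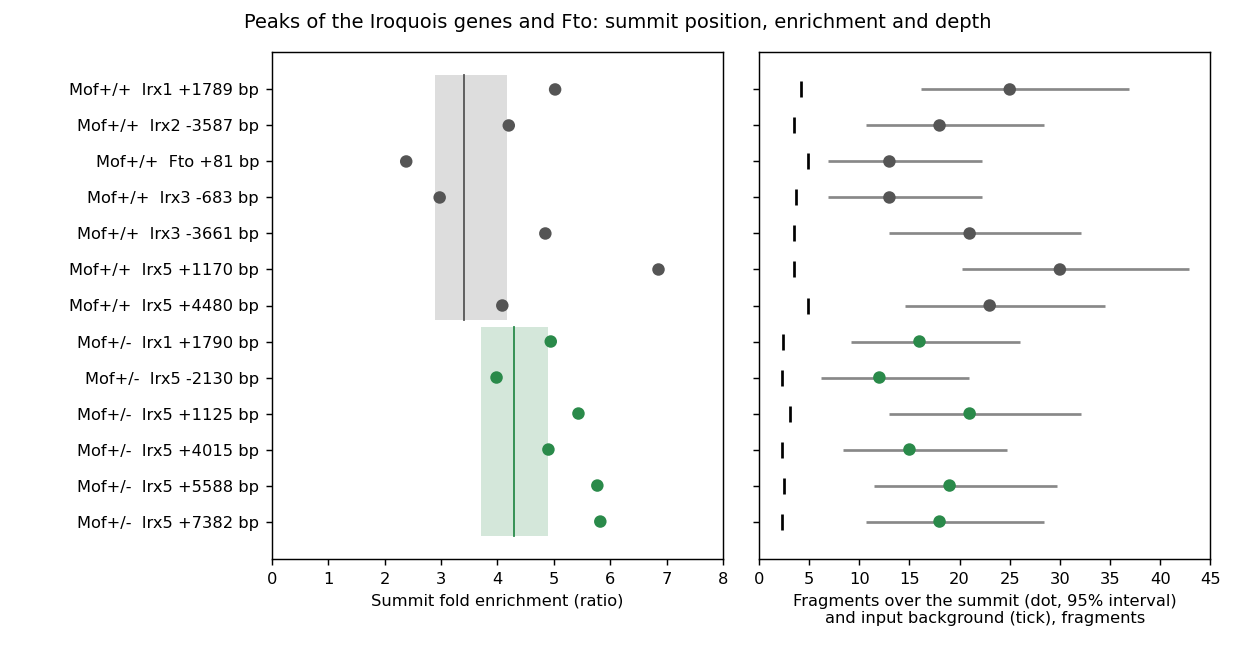
Each row is a peak of the Iroquois genes, of Fto or of the intervals, named by its list, the nearest member and the distance of its summit from the start of that gene in bp. The left panel gives the summit fold enrichment (ratio) as dots over the quartile range (band) and median (line) of the whole list, and the right panel the fragments over the summit (dots) with 95% exact Poisson intervals and the input background (ticks); Irx5 at 6.86 is the highest dot and Fto at 2.38 the lowest.

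Irx5 carried the widest binding of the 7 genes in both lists and the highest summit fold enrichment, although the counting intervals of its strongest summit and of the Irx1 summit overlapped in each list. Irx5 is the homeodomain factor that lies alone in the middle of its cluster, with the long noncoding RNA gene Crnde starting 1505 bp away on the opposite strand. In the Mof+/+ list, 2 peaks 268 bp apart ran from within the stretch between the Crnde and Irx5 starts to 4980 bp beyond the end of the shorter annotated transcript. The longer transcript extends past both. They covered 9904 bp, which placed Irx5 at rank 132 of the 21938 genes by bases in peaks. In the Mof+/- list, 5 peaks covered 6031 bp, 511 bp of them in a peak nearer to starts of Crnde, and Irx5 was at rank 5. Of these bases, 5252 were in peaks of both lists.

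The first Mof+/+ peak (chr8:92356265-92360948, 4684 bp) covered the Irx5 start and had its summit 1170 bp inside the gene, in an intron. At its summit it had 30 fragments (95% interval 20.2 to 42.8) over a background of 3.52, a fold enrichment of 6.86 and −log10 p of 18.4. This peak was at rank 208 of the list by enrichment and 156 by width. The second (chr8:92361217-92366436, 5220 bp) was at rank 114 by width but rose less above the input, with a fold enrichment of 4.09 from 23 fragments (14.6 to 34.5) and a background of 4.87. Its summit lay at 4480 bp, in a short coding exon of the longer transcript. Joined across their gap the pair made a domain of 10172 bp, rank 68 of 15964 domains made by joining Mof+/+ peaks within 1000 bp, whose median was 734 bp.

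The 5 Mof+/- peaks at Irx5 lay along the same stretch as separate, narrower blocks. The outermost on the upstream side was in an intron of Crnde and ended 1955 bp before the Irx5 start. Start sites of Crnde lie nearer to this peak than the Irx5 start, so it cannot be given to Irx5 alone. The 3 kb rule counts it with Irx5. This peak had the lowest values, with a fold enrichment of 3.99 from 12 fragments (6.20 to 21) and a q-value of 0.00866. It was 594 bp away from the nearest Mof+/+ peak and the one Mof+/- peak of the members that overlapped none. The next (chr8:92358504-92359995) had 21 fragments (13 to 32.1) and a fold enrichment of 5.44, and its summit was 45 bp from that of the strongest Mof+/+ peak.

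The remaining 3 Mof+/- peaks lay farther into the longer transcript, with summits at 4015, 5588 and 7382 bp. Their fold enrichments were 4.91, 5.77 and 5.83, from 15, 19 and 18 fragments, with intervals of 8.40 to 24.7, 11.4 to 29.7 and 10.7 to 28.4. All of these intervals overlapped one another and those of the summit at 1125 bp and of the outermost peak, so no order of height among the Mof+/- peaks could be read at this depth. The summits at 5588 and 7382 bp were 1108 and 2902 bp from the summit of the Mof+/+ peak that covered them. Joined within 1000 bp, the middle 3 Mof+/- peaks made a domain of 5243 bp, rank 14 of 572 with a median of 464 bp.

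**Figure D2:**
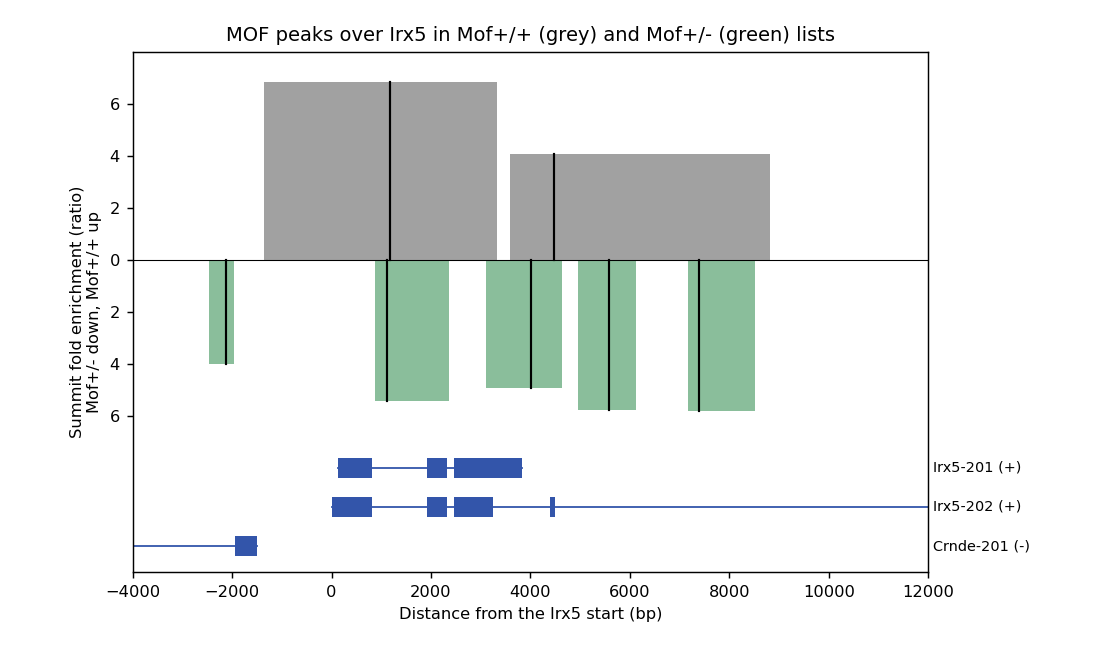
Peaks around Irx5, with distance from the Irx5 start in bp on the horizontal axis. Box height is the summit fold enrichment (ratio) of Mof+/+ peaks (grey, up) and Mof+/- peaks (green, down), box width the extent of the peak and the black line its summit; exons (boxes) of both Irx5 transcripts and of Crnde are drawn below. The 2 Mof+/+ peaks reach 6.86 and 4.09, and 4 of the 5 Mof+/- peaks lie under them.

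Irx1, the second gene with a peak in both lists, had a single site. Irx1 encodes a homeodomain factor of the first cluster. The Mof+/+ peak (chr13:71961462-71963130, 1669 bp) lay inside the gene, its nearest edge 593 bp from a start site and its summit in an intron, 1789 bp from the gene's start. At its summit it had 25 fragments (16.2 to 36.9) over a background of 4.17, a fold enrichment of 5.02 with −log10 p of 12.2. The Mof+/- peak (chr13:71961601-71962761, 1161 bp) lay wholly within it, with 16 fragments (9.15 to 26.0) over a background of 2.44 and a fold enrichment of 4.95. Both summits were within 1 bp of each other. By bases in peaks Irx1 was at rank 2846 for Mof+/+ and at rank 99 for Mof+/-.

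At Irx3 binding was upstream of the gene and was in the Mof+/+ list alone. Irx3 is the homeodomain factor that shares its cluster with Irx5, and Irx3os is a noncoding gene transcribed from its opposite strand. The nearer peak (chr8:91802407-91802967) had its summit 683 bp before the Irx3 start in an intron of Irx3os. An annotated start of Irx3os lies nearer to it than the Irx3 start, so it cannot be given to Irx3 alone. The peak was among the weaker of its list, with 13 fragments (6.92 to 22.2) over 3.70, a fold enrichment of 2.98 and a q-value of 0.0115. The farther one (chr8:91804937-91805971) had its summit 3661 bp upstream in an Irx3os exon, with 21 fragments (13 to 32.1) over 3.53 and a fold enrichment of 4.85. Of the pair, the farther one alone had a p-value beyond the weakest in the Mof+/- list. The nearest Mof+/- peak to an Irx3 start site was 553093 bp away, at Irx5.

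Fto had 1 Mof+/+ peak, which began just inside its outermost start and covered alternative start sites within the gene, and 0 Mof+/- peaks. The peak (chr8:91313563-91313913, 351 bp) had its summit 81 bp inside the gene in the first coding exon, with 13 fragments (6.92 to 22.2) over a background of 4.87. Its fold enrichment of 2.38 and −log10 p of 3.26 were close to the weakest of the list, at rank 19276 by enrichment, and its q-value was 0.0950 where 0.097 was the largest in either list. The start of Rpgrip1l, a gene of the primary cilium on the opposite strand, is 263 bp from that of Fto, so the peak cannot be given to one gene over the other. The closest Mof+/- peak was 418464 bp away, inside Chd9.

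No Mof+/+ or Mof+/- peak lay wholly inside any of the 8 introns of Fto, counted in its longest annotated transcript, which has 9 exons. The first intron, 88.2 kb long, held 293 bp of the peak at the start and no other base in a peak, and the eighth, 143 kb long, held none. Fto is 355 kb long, and of 567 protein-coding genes of at least 300 kb, 94 (16.6%) had a Mof+/+ peak in the gene more than 3 kb from every start site. At the density of the whole Mof+/+ list, 2.57 peaks would be placed in a stretch as long as Fto and 0.639 in one as long as its first intron. The few peaks that these lengths would hold at that density do not allow the introns to be told from other sequence.

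Irx2, Irx4 and Irx6 had no peak in either list within 3 kb or in the gene body. Irx2, a homeodomain factor of the first cluster, had the closest one. This Mof+/+ peak, 613 bp wide, lay in intergenic sequence with its summit 3587 bp before the Irx2 start, a fold enrichment of 4.20, 18 fragments (10.7 to 28.4) and no Mof+/- peak over it. Irx4, known for its role in the heart ventricles, was 174030 bp from the closest Mof+/+ peak. For Irx6 that distance was 307852 bp, and the peak was the one at Irx5. Its Mof+/- counterpart, also at Irx5, was 308152 bp away.

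Along the first cluster, from 3 kb before Irx1 to 3 kb past Irx4 (1318 kb), there were 2 Mof+/+ peaks and 1 Mof+/- peak, covering 0.173% and 0.0881% of the span. The genome-wide density would give 9.55 and 0.346 peaks for that length. Along the second cluster, from Irx3 to Irx6 (888 kb), there were 4 and 5 peaks, covering 1.29% and 0.679%, where the density would give 6.44 and 0.233. Genome-wide, peaks covered 0.634% of the sequence for Mof+/+ and 0.0179% for Mof+/-. The second cluster thus held more bases in peaks than the first, and 9904 of its 11500 bp in Mof+/+ peaks were at Irx5.

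The intervals between genes held few peaks. Irx2 to Irx4 (626 kb), Fto to Irx3 (130 kb) and Irx5 to Irx6 (298 kb) held no peak of either list. At the genome-wide density these lengths would hold 4.54, 0.943 and 2.16 Mof+/+ peaks, and 0.165, 0.0342 and 0.0783 Mof+/- peaks. Irx1 to Irx2 (665 kb) held the peak upstream of Irx2, and Irx3 to Irx5 (556 kb) held the 2 Irx3 peaks, the edge of the first Irx5 peak and, in the Mof+/- list, the peak in Crnde. Assembly gaps made up 0 bases of these intervals. The stretch without a Mof+/+ peak that began inside Irx5, at the end of its last peak, and took in Irx6 was 1645 kb long, rank 324 of 19732 stretches between neighbouring peaks, whose median was 12.2 kb. The one between the Fto start and Irx3, in which all but the start of Fto lies, was 488 kb long, with 5.12% of stretches longer.

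**Figure D3:**
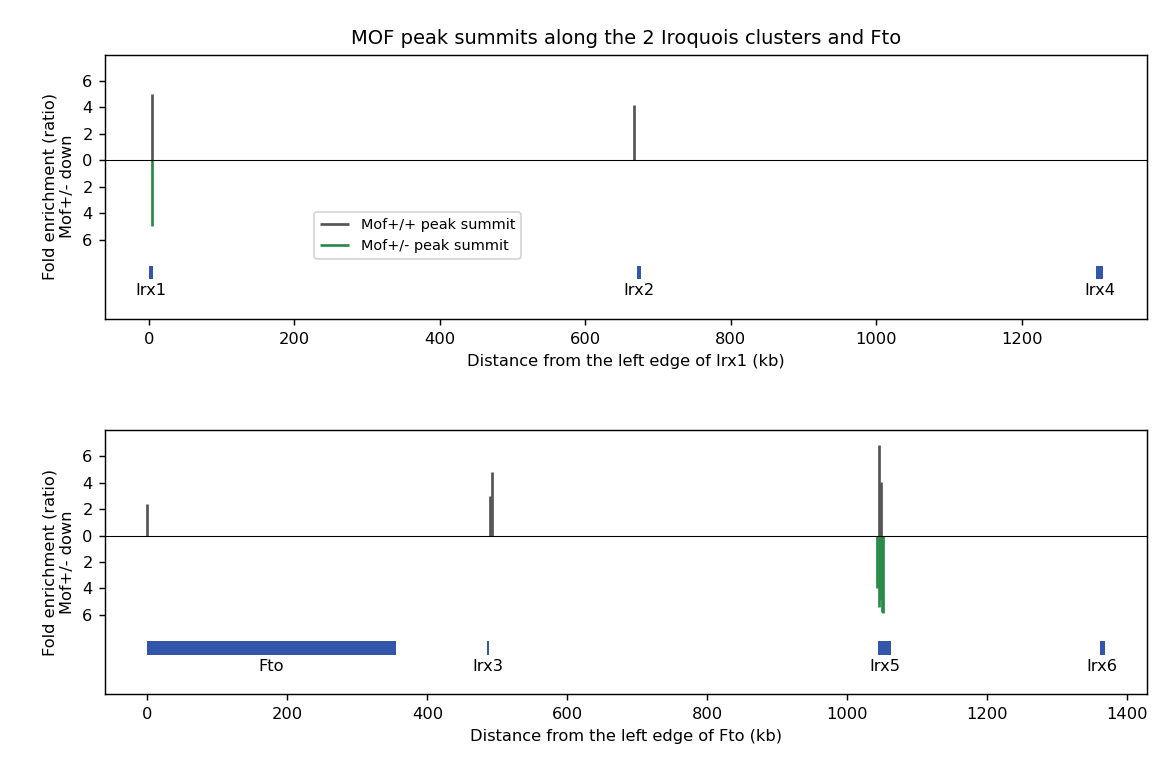
Summit fold enrichment (ratio) along the Irx1, Irx2 and Irx4 cluster (top) and along Fto and the Irx3, Irx5 and Irx6 cluster (bottom), against distance in kb from the left edge of Irx1 and of Fto. Lines up are Mof+/+ and lines down Mof+/- summits, blue boxes are genes; the 2 clusters hold 6 Mof+/+ and 6 Mof+/- peaks, with 1 more Mof+/+ peak at the Fto start, and 0 between Irx5 and Irx6.

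Overlap between the lists was confined among these genes to Irx1 and Irx5, where 5 of 6 Mof+/- peaks overlapped a Mof+/+ peak by at least 1 bp and 3 of 7 Mof+/+ peaks (intervals included) overlapped a Mof+/- peak. Over all chromosomes, 84.8% of Mof+/- peaks (607 of 716) overlapped a Mof+/+ peak and 2.44% of Mof+/+ peaks (481 of 19753) overlapped a Mof+/- peak. Of the 5, 4 lay wholly inside a single Mof+/+ peak. The fifth (chr8:92360734-92362266) bridged the 268 bp gap at Irx5, with 215 bp in the first and 1050 bp in the second Mof+/+ peak.

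**Figure D4:**
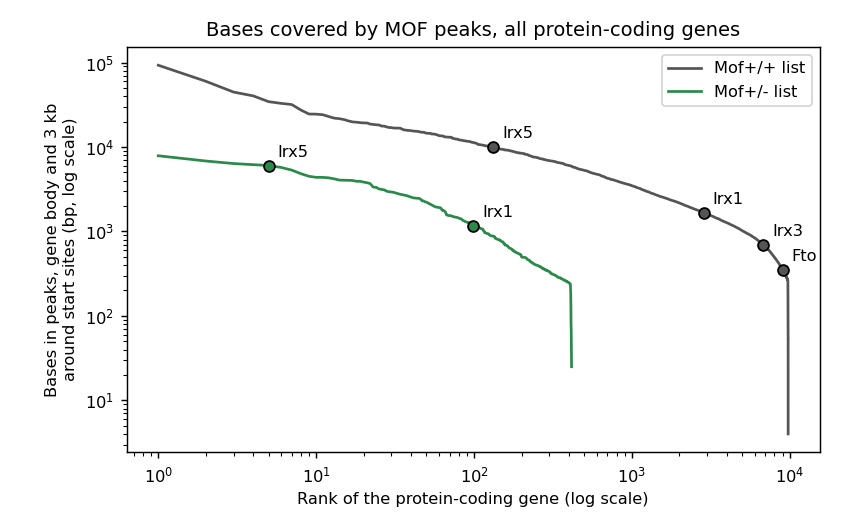
Bases in MOF peaks (bp, log scale) of each protein-coding gene with any, counted in the gene body and 3 kb around its start sites, against the rank of the gene (log scale). Lines are the Mof+/+ (grey) and Mof+/- (green) lists and circles the members: Irx5 is at rank 132 and 5, Irx1 at 2846 and 99, and Irx3 (6815) and Fto (9027) appear in the Mof+/+ list alone.

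The genes whose bases in peaks were most like those of Irx5 in the 2 lists, by the summed absolute difference in log2(1 + bases), were Osr2, Spag6, Isl2, Sp9 and Hoxa9. Osr2, a zinc finger factor, had 9455 bp in Mof+/+ peaks and 6366 bp in Mof+/- peaks and a summed difference of 0.14. Spag6, a sperm tail protein, had 8162 and 5329 bp. Isl2, a LIM homeodomain factor, had 7184 and 6166 bp, Sp9, a zinc finger factor, 13053 and 6825 bp, and Hoxa9, a homeodomain factor, 8960 and 4369 bp. This likeness rests on 2 values per gene, 1 from each list.

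All 7 starts had more CpG sites than the median protein-coding gene, with 41, whether or not they had a peak. Within 500 bp of the start on either side, Irx1 had 111 CpG sites, Irx2 124, Irx3 57, Irx4 89, Irx5 83, Irx6 64 and Fto 60. Irx2, with the most CpG sites, had no peak. Irx1, Irx2, Irx4 and Irx5 were among the 5597 protein-coding genes with at least 69 sites, the CpG-richest starts, and Irx1 and Irx5 of these had a promoter peak in each list, where 73.2% of those genes had one in the Mof+/+ list, and 2.22% had one in that of Mof+/-. Of the sequences shown, the 200 bases before Irx4 held 19 CpG sites, those before Irx2 held 15 and those before Irx6 held 5.

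CpG sites under the summits, in windows of 300 bp, numbered 8 to 21 at the 7 Mof+/+ peaks and 3 to 16 at the 6 Mof+/- peaks, beside list medians of 7 and 10. The Fto window had the most, 21, and the Mof+/- window in Crnde the fewest, 3. Chromatin had been cut with the enzyme CviKI-1, which cuts GC where a purine precedes and a pyrimidine follows it, a site that reads the same on both strands. The member windows held 5 to 11 such sites at Mof+/+ and 2 to 9 at Mof+/- summits, beside medians of 7 and 5. The palindrome ACANNTGT, the known binding sequence of Iroquois proteins, was in 1 of the 7 Mof+/+ windows, that of the second Irx5 peak, and in 0 of the 6 Mof+/- windows. It was in 7.83% of all 19753 Mof+/+ windows and 5.87% of 716 Mof+/- windows.

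Among the 22 protein-coding neighbours with a start within 500 kb of either cluster or of Fto, 7 had a Mof+/+ promoter peak and 0 a Mof+/- one, where 41% and 1.32% of all protein-coding genes had one. Near Fto, 4 of 5 had one. They were Chd9, a chromatin remodeller, at a fold enrichment of 7.08, Rbl2, a relative of the retinoblastoma protein, at 5.31, Aktip, a vesicle transport protein, at 4.20, and Rpgrip1l, at the 2.38 of the peak it shares with Fto. Chd9 also had 3 Mof+/- peaks in its gene body, the highest at 5.44. Near Irx1, Irx2 and Irx4, 3 of 9 had a Mof+/+ promoter peak. These were Lpcat1, which remodels phospholipids, at 5.09, Clptm1l at 3.48 and the cotransporter gene Slc12a7 at 3.24. Near Irx3, Irx5 and Irx6, Rpgrip1l was the 1 of 9, and Mmp2, Lpcat2, Slc6a2 and the carboxylesterase genes Ces1a to Ces1d had none.

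Of 18 genes that act with Fto on m6A, 16 had a Mof+/+ promoter peak and 2 a Mof+/- one. Of the writers, which place the mark, 8 of 9 had a Mof+/+ peak, Mettl16 with the highest fold enrichment at 4.87 and Virma with none. Alkbh5, the other eraser, had one at 5.53, above the 2.38 at Fto. Of the readers, which bind the mark, 7 of 8 had one, and Igf2bp3 (14.9 and 8.36) and Igf2bp1 (7.34 and 5.82) had one in each list. The 41% and 1.32% of all protein-coding genes given above are the background to these counts. They do not separate the CpG-richest starts, of which 73.2% had a Mof+/+ promoter peak.

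Of 11 genes tied to the Fto locus or to beige fat, 5 (45.5%) had a Mof+/+ promoter peak and 0 a Mof+/- one, close to the 41% and 1.32% of all protein-coding genes. Arid5b, which represses Irx3 and Irx5 through the Fto locus, had the highest fold enrichment at 8.18, followed by Rbl2 at 5.31, Cux1 at 4.42 and Aktip at 4.20. Neither MACS2 list held a promoter peak at the beige fat genes Prdm16, Ucp1, Ppargc1a, Pparg, Cidea or Dio2, which does not show that MOF was absent there. Among the 12 other TALE homeobox genes, 7 had a Mof+/+ and 3 a Mof+/- promoter peak, beside the same 41% and 1.32%. Meis1 (4.44 and 3.78), Meis2 (3.54 and 4.29) and Tgif1 (5.10 and 4.60), as Irx1 and Irx5 did, had one in each list.

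Marker genes of adipocytes, progenitors and mesothelium, B cells, T cells and neurons were also examined, although a MOF peak does not measure expression. Mof+/+ promoter peaks were present at 5 of 10 adipocyte genes, including Adipoq, Plin1 and Lipe but not Lep, Fabp4, Cidec, Cd36 or Pparg. They were present at 3 of 7 progenitor and mesothelium genes, 3 of 4 B cell genes, 4 of 4 T cell genes and 0 of 4 neuron genes, beside 41% of all protein-coding genes. In the Mof+/- list Pdgfra, a marker of adipocyte precursors, was the only one of these genes with a promoter peak (5.53 in each list), beside 1.32% of all protein-coding genes. The part of cell composition in the peaks at Irx5 and Irx1 was not tested. In bulk tissue, fewer cells of a type with MOF at a gene and less MOF per cell cannot be told apart.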

How the data were processed

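MOF ChIP-seq of Mof+/+ and Mof+/- visceral WAT was analysed from 1 peak list per genotype. The authors mapped paired-end reads to GRCm38 with snakePipes and called peaks with MACS2 (version 2.1.1.20160309.3 in the submitters' processing notes) against input at a q-value threshold of 0.1. How replicates were combined is not given in the sources used here. The deposited fold enrichment is a ratio of fragments at the summit to local input background, each with a pseudocount of 1 added by the caller, and the −log10 p-value, deposited beside it with the q-value on the same scale, comes from that caller. The deposited summit offset was used as a position. The list named for the heterozygote was taken as Mof+/-, and the other MOF list as Mof+/+; its number of peaks on assembled chromosomes is the one the study gives for wild type. A merge of peaks within 1000 bp named in the methods was not visible in the lists, since 3789 and 144 neighbouring pairs lay that close. H3 libraries were not analysed here.

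Genes came from GENCODE M21 and sequence from GRCm38.p6, the authors' build, counted from 1. Overlap needed 1 bp. Fragments and background at each summit were solved from fold enrichment and p-value (99.98% and 99.5% of peaks, tolerance 0.001), and fragments carry 95% exact Poisson intervals, which cover counting error at the highest point only. The solver was tested on simulated data. Members and gene lists were chosen with earlier results of these data known. Named besides the members were genes with a start within 3 kb of a member's peak and protein-coding neighbours within 500 kb. The 5 genes most like the member with most bases in Mof+/- peaks were named as well, as were listed genes with high enrichment and some without a promoter peak. The RefSeq promoter table held 4 of the 7 members and was not used for coordinates. Of the sequences under the summits, 4 are shown and the others are not reported here. With 1 list per genotype no test was run. Alternatives covered the q-value, merging, a shared p-value cutoff, windows, start sites, overlap and summit placing. Python 3.11.15, numpy 2.4.6, scipy 1.17.1 and matplotlib 3.10.9 were used.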

Additional observations from a re-analysis of the deposited data

How the results depend on the processing

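For 13 counts or values of the Iroquois genes and Fto, 77 alternatives were computed, of which 68 left a count within 1.5 times its value and 9 moved it further. Promoter peaks moved most. The 4 members with a Mof+/+ promoter peak became 2 (Irx1 and Irx5) under stricter q-value limits of 0.01 and 0.001 and with the weakest Mof+/- p-value applied to the Mof+/+ list, as the peaks at Fto and nearer Irx3 were removed. They also became 2 (Irx3 and Fto) when the summit had to lie within 1 kb of a start site, and the 2 members with a Mof+/- promoter peak became 0, since the summits at Irx1 and Irx5 lay farther into the genes. Merging peaks within 1000 bp took the Mof+/- peaks in the Irx3, Irx5 and Irx6 cluster from 5 to 3, and those of both clusters that overlapped a Mof+/+ peak from 5 to 3. Asking for at least 50% of both peaks took the latter to 1, at Irx1. Mof+/+ peaks in Fto introns went from 0 to 1 when introns of any annotated transcript were used and a peak was allowed to overlap an exon as well, 2 changes made together, which let in the peak at the start. A window of 5 kb, chosen after seeing the data, added Irx2 to give 5 members with a Mof+/+ peak and left 2 with a Mof+/- peak. No paired analysis was possible because 1 list stands for each genotype, without replicate numbers, and leaving out a replicate was not run for the same reason. Few fragments limit each value: the member summits with 12 and 13 fragments have intervals of 6.20 to 21 and 6.92 to 22.2.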
